A study of Homo sapiens with 8 samples.

Results

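Genes for the import of proteins into mitochondria and for the CHCHD proteins were compared between small and large human embryonic stem cells. The set held every probe set that the array's annotation assigned to 1 gene symbol beginning with TIMM, TOMM or CHCHD and a number, which gave 53 of 54675 probe sets and 30 genes. Of these, 45 probe sets for 29 genes were bright enough to be tested. The 8 untested probe sets had group means of 1.81 to 3.99 on the log2 scale, below or near the brightness limit of 3.62, and they include the only probe set that names TIMM23 alone.

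All cells came from H1, an established line of human embryonic stem cells, and were grown over irradiated mouse feeder cells. A flow cytometer separated them by forward and side scatter into a small and a large fraction, and 4 independent sorts of each were measured on 8 arrays of the Affymetrix U133 Plus 2.0 design. No genotype, treatment or time differed between the fractions by the labels, and all sorts came from this 1 line. RNA was taken from each whole fraction, so fewer cells of a type and a lower RNA share per cell cannot be told apart. Each array started from 1 ug of total RNA and the values were normalized, so they give shares of the RNA. Amounts per cell were not measured, and higher or lower refers to these shares.

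Most mitochondrial proteins are made in the cytosol and carried in. The TOM complex, which most TOMM genes encode, is the entry gate of the outer membrane, and the TIM23 complex passes precursors with an N-terminal signal through the inner membrane to the matrix. Small TIM chaperones escort hydrophobic carriers across the intermembrane space to the TIM22 complex, which inserts them into the inner membrane. CHCHD proteins carry paired cysteine motifs, and many are trapped in the intermembrane space by the disulfide relay that CHCHD4, also called MIA40, runs.

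CHCHD1, a protein of the small subunit of the mitochondrial ribosome, and TIMM8A, a small TIM chaperone known from inherited deafness-dystonia, were higher in small cells. These were 2 of 29 tested genes (6.9%) that passed the test, against 0.299% of all 14726 tested genes that were higher and 1.99% that differed in either direction; no member was lower, against 1.69% of all genes. The test was limma's moderated test on normalized log2 intensities with Benjamini-Hochberg adjustment over all tested genes and a threshold of 0.05. Differences are given as small minus large on the log2 scale with 1 moderated standard error (SE) and 4 arrays per group. No member differed by 2-fold or more, and for 15 of the 29 the difference was smaller than its SE. The members were brighter than tested genes in general, with median log2 levels of 7.91 and 6.34. Their median SE was smaller, 0.19 against 0.24, and the part of this in the shares was not tested.

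All 8 TIM22 and small TIM genes and 7 of 8 CHCHD genes had a difference above 0, beside 4 of 7 TOMM genes and 3 of 6 genes of the TIM23 complex and its motor. Over the set it was 22 of 29 genes (75.9%), and the share among all tested genes was 56%. The median difference was 0.38 for the TIM22 and small TIM genes, 0.30 for the CHCHD genes, 0.03 for the TOMM genes and 0.02 for the TIM23 genes, beside 0.05 over all genes. Over the 29 members it was 0.15. Under 3 other scalings of the arrays the TIM22 and small TIM genes kept 8 of 8 above 0, with medians of 0.25 to 0.40, while the CHCHD median ran from 0.23 to 0.38, the TIM23 median from -0.03 to 0.12 and the TOMM median from 0.06 to 0.21. The CHCHD median was 0.48 without small array 3 and 0.21 without small array 1. When all probe sets of a gene were averaged, the TOMM median was 0.21, with 5 of 7 genes above 0. The TIM23 median was then -0.04, the CHCHD median 0.26, the TIM22 and small TIM median 0.37 and the median of all genes 0.05. Relative to the median of all genes, the TOMM median was -0.02 in the main fit and 0.12 under each of the 3 other scalings. The TOMM median thus differed both with the choice of probe set and with the scaling. These are descriptions of the lists, and the difference between the groups was not tested.

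**Figure D1:**
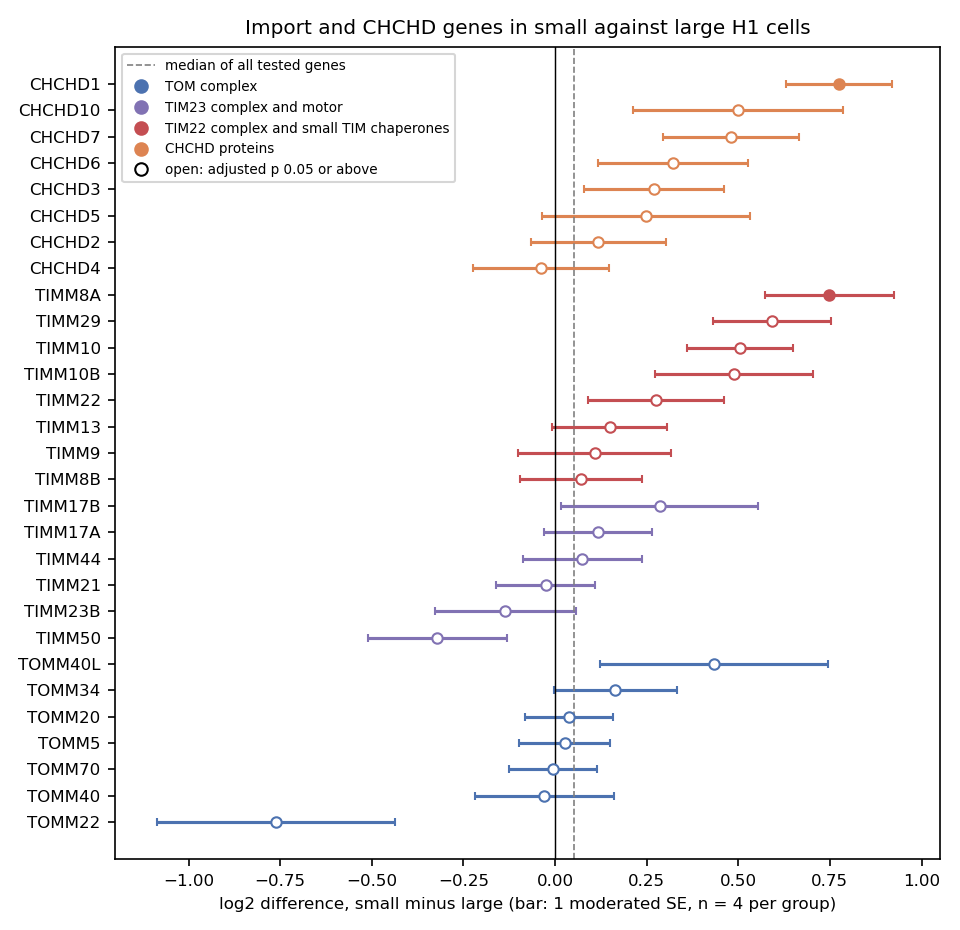
Difference between small and large cells for the 29 tested genes, with the log2 difference on the horizontal axis, 1 gene per row and colour for the role. Filled points passed the test, bars are 1 moderated SE and the dashed line is the median of all tested genes; CHCHD1 and TIMM8A are filled, and TOMM22 lies farthest to the left with the widest bar.

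In 4 of the 29 genes (13.8%), CHCHD1, TIMM8A, TIMM29 and TIMM10, every small array was above every large array, against 4.94% of all tested genes. No member had the opposite separation, which 5.07% of all genes had. The RefSeq sequence of the 250 bases before the start of these 4 genes, build GRCh38.p14, is shown because they are the genes whose fractions separated. The regions are chr10:73781798-73782047 on the plus strand for CHCHD1, chrX:101348743-101348992 on the minus strand for TIMM8A, chr19:10928561-10928810 on the plus strand for TIMM29 and chr11:57530755-57531004 on the minus strand for TIMM10. Each is written 5′ to 3′, with capitals for matches on either strand to the letters of motifs bound by NRF1 (GCGC, any base, then TGCGC) or ETS factors (CCGGAAG), both known at many genes for mitochondrial proteins.
CHCHD1: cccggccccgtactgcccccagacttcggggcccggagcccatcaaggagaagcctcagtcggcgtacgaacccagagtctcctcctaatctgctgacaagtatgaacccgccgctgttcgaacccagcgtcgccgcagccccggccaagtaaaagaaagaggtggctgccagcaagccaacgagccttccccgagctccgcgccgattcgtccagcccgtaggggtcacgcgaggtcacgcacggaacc
TIMM8A: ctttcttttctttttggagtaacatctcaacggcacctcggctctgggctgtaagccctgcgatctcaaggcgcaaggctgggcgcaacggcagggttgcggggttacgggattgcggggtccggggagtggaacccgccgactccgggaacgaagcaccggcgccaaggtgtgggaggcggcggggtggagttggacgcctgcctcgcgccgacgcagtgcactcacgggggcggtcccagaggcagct
TIMM29: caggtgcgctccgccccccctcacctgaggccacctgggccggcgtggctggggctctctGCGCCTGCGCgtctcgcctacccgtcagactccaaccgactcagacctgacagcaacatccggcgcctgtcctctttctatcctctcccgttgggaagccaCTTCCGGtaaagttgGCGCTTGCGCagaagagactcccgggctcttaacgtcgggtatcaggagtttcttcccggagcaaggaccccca
TIMM10: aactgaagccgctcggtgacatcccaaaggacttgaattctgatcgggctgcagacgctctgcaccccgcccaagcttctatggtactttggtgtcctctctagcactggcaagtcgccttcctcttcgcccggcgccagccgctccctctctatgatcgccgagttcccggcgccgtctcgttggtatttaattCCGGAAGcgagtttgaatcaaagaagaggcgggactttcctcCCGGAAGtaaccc
TIMM29 carried 2 NRF1 matches and 1 ETS match, TIMM10 carried 2 ETS matches, and CHCHD1 and TIMM8A had no match in these letters. In windows of 300 bases, 250 before and 50 after the start, the ETS letters were found in 12 of 27 members with an entry (44.4%), in 17.1% of 11776 promoters of tested genes and in 10.7% of all 27305 promoters. The NRF1 letters were in 5 of 27 members (18.5%), 10.4% and 6.28%. The YY1 letters AAGATGGC were in 2 of 27 (7.41%), 4.75% and 3.03%. TATAAA was in 0 of 27, 6.75% and 12%. Both strands were searched, and no 2 different motifs overlapped in a member. The 250 bases before the start had a median G and C content of 64.0% in members and 58.0% in all promoters, and the part of this in the shares was not tested. A match is only a run of letters.

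CHCHD1 had log2 intensities of 10.15, 10.45, 10.25 and 10.08 on small arrays 1 to 4 and of 9.24, 9.58, 9.29 and 9.72 on large arrays 1 to 4. Every small array stood above every large one. The means were 10.23 ± 0.16 (SD, n = 4) and 9.46 ± 0.23 (SD, n = 4), a difference of 0.775 ± 0.14 (SE), or 1.71-fold, with an adjusted p of 0.01779. Its single probe set also passed at the probe-set level, with an adjusted p of 0.02287, and was 1 of 45 member probe sets (2.22%) that did so, against 0.198% of 32768 that were higher and 1.5% called in either direction; none was called lower, against 1.3%. The call was lost without small array 1 (adjusted p = 0.05727), small array 2 (0.0659) or large array 3 (0.06669), and it held without each of the other 5 arrays. No gene of the array passed, CHCHD1 included, on the deposited scaling (difference of CHCHD1 0.77), after median centring (0.92) or when limma's variance trend was dropped (0.775).

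TIMM8A had log2 intensities of 7.58, 7.45, 7.31 and 7.70 on the small arrays and of 6.90, 6.47, 6.98 and 6.69 on the large arrays. Again the fractions did not overlap. The difference was 0.75 ± 0.18 (SE), or 1.68-fold, with an adjusted p of 0.04738 over genes. Over probe sets the adjusted p was 0.06021, above the threshold, so TIMM8A passed only at the gene level. Its call held without large array 1 and was lost when any other array was left out, with adjusted p-values over the 8 omissions from 0.03889 to 0.1406.

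The remaining TIM22 and small TIM genes did not pass, and all had a difference above 0. TIMM29, a subunit of the TIM22 complex, had 7.73, 7.67, 7.76 and 7.61 in small cells and 7.09, 7.37, 7.06 and 6.90 in large cells, a difference of 0.59 ± 0.16 (SE) with an adjusted p of 0.08117. TIMM10, a chaperone that acts with TIMM9, had 9.84, 10.19, 9.87 and 10.13 in small and 9.76, 9.62, 9.30 and 9.34 in large cells, a difference of 0.50 ± 0.15 (SE) with an adjusted p of 0.09853, which became 0.04573 without large array 1. In both genes the fractions did not overlap, but in TIMM10 the gap between small array 1 and large array 1 was narrow. TIMM10B, which docks the small TIM chaperones on the TIM22 complex, differed by 0.49 ± 0.22 (SE), and TIMM22, the channel itself, by 0.27 ± 0.19 (SE). TIMM13, the usual partner of TIMM8A, differed by 0.15 ± 0.16 (SE), and its fractions overlapped. TIMM9 differed by 0.11 ± 0.21 (SE) and TIMM8B by 0.07 ± 0.17 (SE). TIMM8B had 10.24, 10.46, 9.74 and 10.31 in small and 10.38, 10.10, 9.82 and 10.16 in large cells, with full overlap. Without small array 2, 7 of these 8 genes had a difference above 0, and without large array 3 it was 6.

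**Figure D2:**
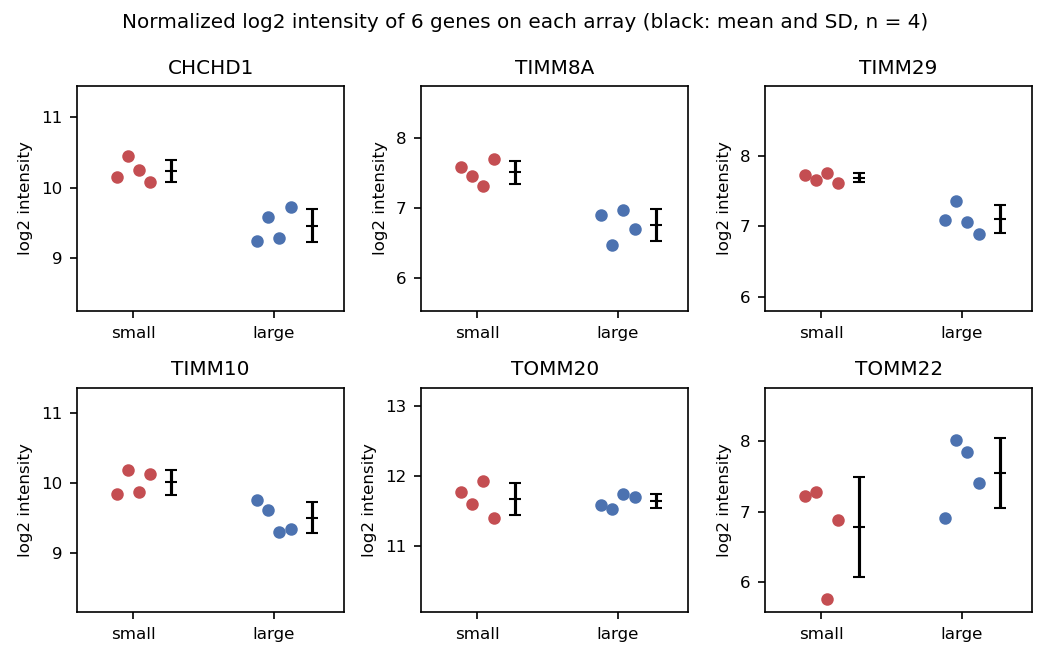
Normalized log2 intensity of 6 genes on each array, small arrays in red and large arrays in blue in the order of sorts 1 to 4, with the mean and SD (n = 4) in black. Every panel spans the same range of log2 units. CHCHD1, TIMM8A, TIMM29 and TIMM10 show no overlap, TOMM20 overlaps fully and TOMM22 has one low small array at 5.75.

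Among the other CHCHD genes none passed. CHCHD10, an intermembrane-space protein mutated in motor neuron disease, differed by 0.50 ± 0.29 (SE), with a wide spread in small cells (6.73 to 8.29). Its relative CHCHD2 had 11.03, 10.77, 10.64 and 10.55 in small and 10.86, 11.11, 10.25 and 10.31 in large cells, a difference of 0.12 ± 0.18 (SE). The fractions overlapped in both. CHCHD7, a likely assembly factor of cytochrome oxidase, differed by 0.48 ± 0.19 (SE) with an adjusted p of 0.214. CHCHD3 and CHCHD6, subunits of the MICOS complex that shapes cristae, differed by 0.27 ± 0.19 (SE) and 0.32 ± 0.21 (SE). CHCHD5 differed by 0.25 ± 0.28 (SE). CHCHD4, the oxidoreductase of the disulfide relay, differed by -0.04 ± 0.19 (SE) and was the 1 gene of the 8 with a difference below 0.

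Of the 7 TOMM genes none passed, and 1 had an unadjusted p under 0.05. TOMM20, the receptor for N-terminal signals, had 11.77, 11.61, 11.93 and 11.40 in small and 11.59, 11.53, 11.75 and 11.70 in large cells, a difference of 0.04 ± 0.12 (SE). The small subunit TOMM5 differed by 0.03 ± 0.12 (SE), the carrier receptor TOMM70 by -0.01 ± 0.12 (SE) and the pore TOMM40 by -0.03 ± 0.19 (SE). TOMM40L, a relative of the pore, differed by 0.43 ± 0.31 (SE) and the cytosolic co-chaperone TOMM34 by 0.16 ± 0.17 (SE). TOMM22, the central receptor, had the lowest difference of all members at -0.76 ± 0.32 (SE) with an adjusted p of 0.2594, and is named here after its values were seen. It had 7.23, 7.28, 5.75 and 6.88 in small and 6.91, 8.02, 7.85 and 7.40 in large cells, so the fractions overlapped and small array 3 was far below the rest.

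In the TIM23 complex, TIMM17A, a core subunit of the channel, had 9.97, 10.003, 9.50 and 9.996 in small and 9.99, 9.68, 9.72 and 9.61 in large cells, a difference of 0.12 ± 0.15 (SE). Its relative TIMM17B differed by 0.29 ± 0.27 (SE). TIMM44, which ties the heat shock motor to the channel, differed by 0.07 ± 0.16 (SE), and TIMM21, which links the TIM23 complex to the TOM complex, by -0.03 ± 0.13 (SE). TIMM23B, a near copy of the channel gene TIMM23, differed by -0.14 ± 0.19 (SE), and the presequence receptor TIMM50 by -0.32 ± 0.19 (SE). None of the 6 passed, and none had an unadjusted p under 0.05. Over all 29 members, 7 (24.1%) had an unadjusted p under 0.05, against 16.5% of all tested genes.

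**Figure D3:**
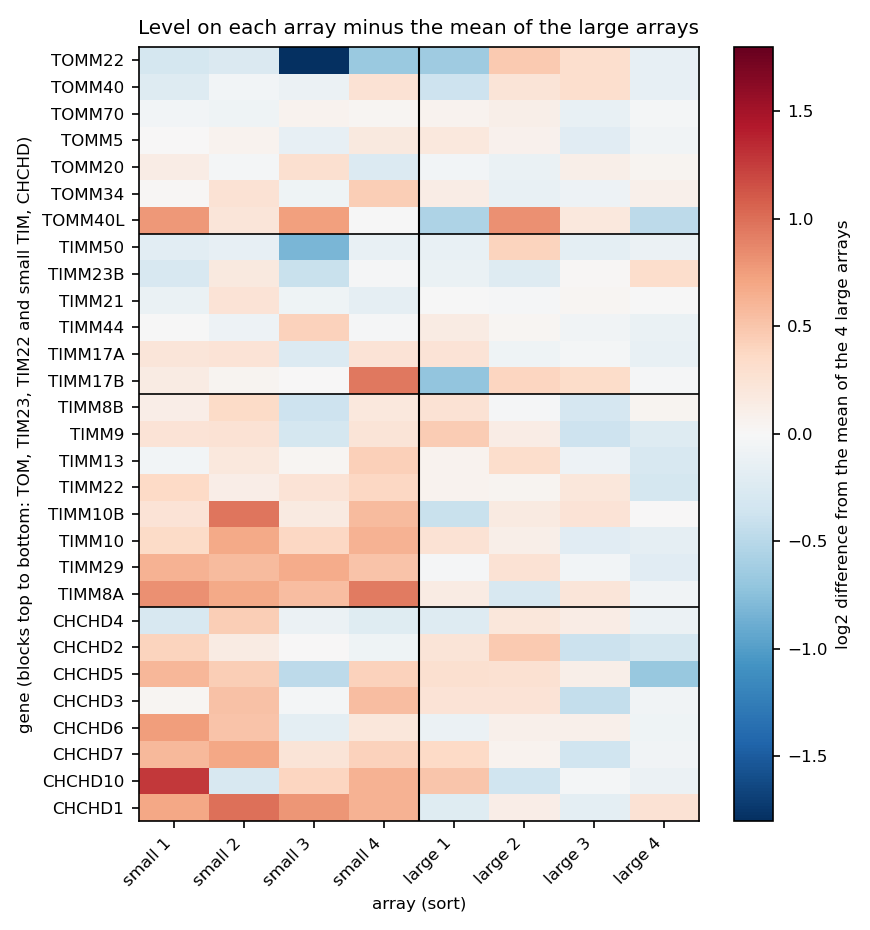
Level of each of the 29 genes on each array minus its mean over the 4 large arrays, on a colour scale in log2 units with red for higher, in columns for small arrays 1 to 4 and large arrays 1 to 4. Most rows of the lower 2 blocks (TIM22 and small TIM, CHCHD) are redder on the small arrays, and small array 3 is paler or bluer than the other small arrays in many rows.

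Single arrays moved many members at once. On small array 3, 6 of 29 genes were above the mean of the small arrays, and on large array 4, 6 of 29 were above the mean of the large arrays, compared with 13 to 21 on the other arrays. The 75th percentile of the deposited intensities spanned 42.0 to 106 over the arrays, 2.52-fold, and did not separate the fractions (exact two-sided permutation p = 0.7143; the smallest possible is 0.0286). The excess of 3′ over 5′ signal of the GAPDH and ACTB control probe sets, a sign of RNA integrity and labelling, averaged 2.36 on the small arrays, with an SD of 0.30, and 2.12 on the large arrays, with an SD of 0.53 (n = 4 each; exact two-sided permutation p = 0.4). It was highest on large array 1 (2.91) and lowest on large array 3 (1.83). With this excess as a covariate, CHCHD1 still passed and TIMM8A had an adjusted p of 0.08775.

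For 13 of the genes several probe sets were tested, and in 6 of them the differences had opposite signs. TOMM70 was one: the probe set with the higher signal gave -0.01 ± 0.12 (SE), while a second had 7.36, 7.82, 7.77 and 7.60 in small and 7.29, 7.13, 7.05 and 7.15 in large cells, a difference of 0.48 ± 0.17 (SE) without overlap and with an adjusted p over probe sets of 0.1831. The second probe set of TIMM10 gave 0.18 ± 0.19 (SE) and overlapped. The 3 probe sets of TOMM22 gave -0.76, -0.19 and 0.41. For TIMM8B the second probe set gave 0.70 ± 0.21 (SE), and for TIMM44 the 2 gave 0.07 and -0.64. CHCHD1 and TIMM29 had 1 probe set each, and the other probe set of TIMM8A was too dim to test. Fractions did not overlap in 5 of 45 member probe sets (11.1%), all with small above, against 3.89% of all tested probe sets; small lay below in none, against 5.46%. The difference was above 0 in 33 of 45 (73.3%), against 52.4%.

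**Figure D4:**
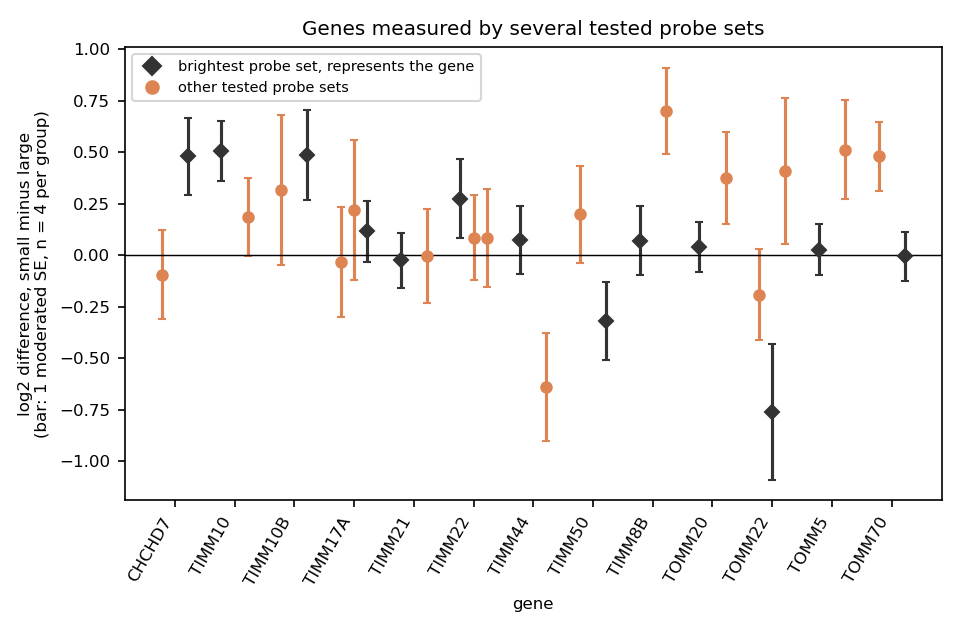
Differences of all tested probe sets for the 13 genes with several, as log2 difference with 1 moderated SE (n = 4 per group). Black diamonds are the probe set that represents the gene and orange points the others; for CHCHD7, TIMM17A, TIMM44, TIMM50, TOMM22 and TOMM70 they lie on both sides of 0.

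The partner proteins of the import machinery were counted in 6 lists, of which 65 of 70 genes were tested. None was higher and 1 was lower (1.54% called, near the 1.99% of all tested genes). A difference above 0 was found in 47 (72.3%, against 56% of all genes), with a median of 0.15, and 18 had an unadjusted p under 0.05, beside 16.5% of all genes. Without large array 1 and small array 3, 7 were higher and 1 was lower. In that setting the calls also rose over all 14726 tested genes, to 317 higher and 459 lower. The 1 lower gene was ATAD1, the outer membrane ATPase that extracts misplaced tail-anchored proteins. ATAD1 had 8.06, 8.24, 7.60 and 8.06 in small and 8.79, 8.87, 8.46 and 8.81 in large cells, a difference of -0.74 ± 0.17 (SE) with an adjusted p of 0.04359. Small and large values did not overlap. This call was lost whichever array was left out, with adjusted p-values from 0.05437 to 0.1352.

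Other proteins with a twin CX9C fold, the fold shared by most CHCHD proteins, were all above 0: 12 of 12 tested, with none called, 6 at an unadjusted p under 0.05 and a median of 0.48. Among all tested genes 56% were above 0, 16.5% had an unadjusted p under 0.05 and the median was 0.05. NDUFA8, NDUFB7, NDUFB10 and COX6B1 of this list are also counted among the respiratory chain subunits below. CMC2, a factor for cytochrome oxidase, differed by 0.58 ± 0.15 (SE; adjusted p = 0.07437), and NDUFB7, a subunit of complex I, by 0.84 ± 0.25 (SE; adjusted p = 0.1108). Without small array 2, small array 4 or large array 4, or when a gene's probe sets were averaged, 11 of 12 were above 0. Without small array 3, 2 of the 12 passed as higher, where 47 of all 14729 tested genes were higher and 206 lower. Without large array 1 and small array 3, 4 passed as higher, where 317 of all 14726 were higher and 459 lower. With the replicate number as a block, 3 passed as higher, where 240 of all 14726 were higher and 513 lower. Among the receptors and pores, MTX1, a partner in outer membrane assembly, differed by 0.80 ± 0.22 (SE; adjusted p = 0.08091) and SAMM50, the core of that complex, by 0.45 ± 0.14 (SE; adjusted p = 0.1161). Of the 7, 4 had an unadjusted p under 0.05: these 2, ROMO1 at 0.70 ± 0.29 (SE) and, in the other direction and without overlap, MTX3 at -0.32 ± 0.14 (SE); the last 2 are named after their values were seen. In the import motor list, DNAJC15 differed by 0.70 ± 0.17 (SE; adjusted p = 0.05109) and HSPE1 by 0.31 ± 0.17 (SE); 1 of 10 had an unadjusted p under 0.05. GFER, the oxidase that re-oxidises CHCHD4, differed by 0.78 ± 0.21 (SE; adjusted p = 0.07148) and AIFM1, a binding partner of CHCHD4, by -0.28 ± 0.17 (SE). Among the proteases, CLPP differed by 0.58 ± 0.22 (SE; adjusted p = 0.2121) and IMMP1L by 0.37 ± 0.17 (SE). The 13 tested genes of the list of cytosolic and outer membrane helpers had a median of -0.03. That list also counts BCS1L, an inner membrane protein, at -0.22 ± 0.16 (SE).

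**Figure D5:**
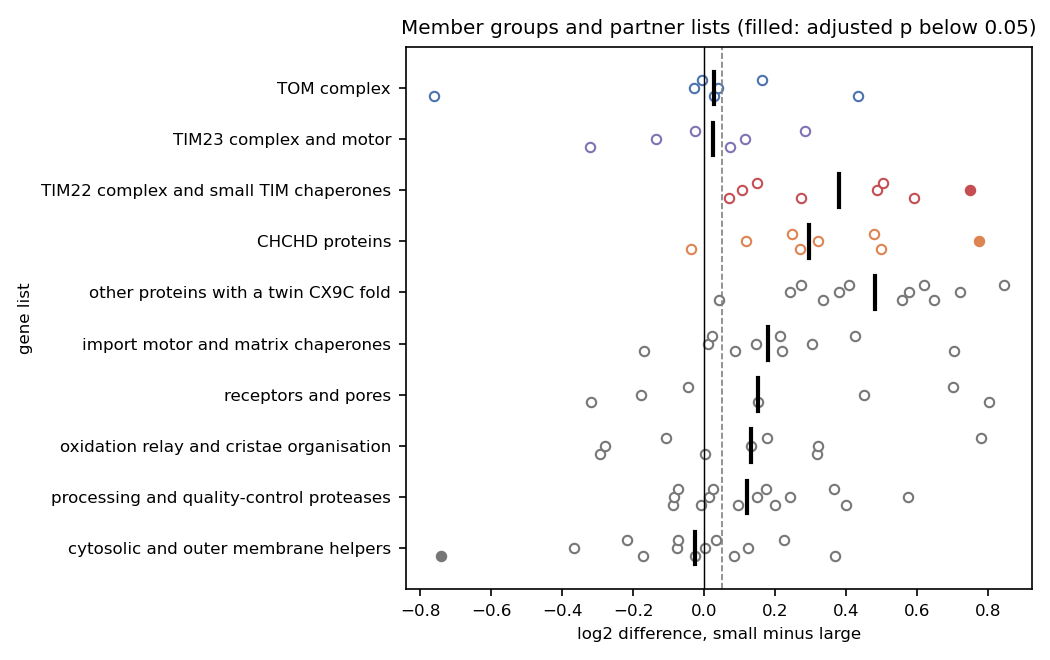
Difference of each tested gene in the 4 role groups and 6 partner lists, on a log2 scale, with black bars for list medians and a dashed line for the median of all tested genes. Filled points passed the test; the twin CX9C list has all 12 points above 0, and ATAD1 is the filled point at the left of the helpers.

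Related mitochondrial groups are given for scale, without a test between them. The nuclear-encoded mitochondrial ribosomal proteins had 72 of 76 tested genes above 0, a median of 0.36, 32 with an unadjusted p under 0.05 and 2 genes called (2.63%, beside 1.99% of all genes), both higher: MRPL41 at 0.89 ± 0.19 (SE; adjusted p = 0.03236) and MRPL9 at 0.57 ± 0.12 (SE; adjusted p = 0.03252). The respiratory chain subunits had 57 of 74 above 0, a median of 0.19 and no gene called (17 with an unadjusted p under 0.05), and the SLC25 carriers, cargo of the TIM22 route, 26 of 44 above 0, a median of 0.08 and none called (5 with an unadjusted p under 0.05).

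The labelled cell type was checked on 11 tested embryonic stem cell markers, whose mean level was 10.80 to 10.93 in small and 10.91 to 11.08 in large cells. Of these 11, 9 had a difference below 0, and 1 was called lower, PODXL, a surface sialomucin, at -0.98 ± 0.15 (SE). Neuroectoderm markers had mean levels of 5.38 to 5.54 in small and 4.90 to 5.15 in large cells, without overlap; all 7 tested had a difference above 0 and none was called (4 with an unadjusted p under 0.05). Endoderm markers were 4.99 to 6.31 and 4.24 to 5.77, with all 5 tested above 0 and a median difference of 0.68. Fibroblast markers were 5.79 to 6.98 and 6.19 to 7.04, with 6 of 9 below 0. Mesoderm markers were 4.03 to 4.87 and 4.13 to 4.96, with 2 of 4 above 0. Trophoblast markers were 4.49 to 5.29 and 5.07 to 5.40, with 4 of 4 below 0. No gene of the endoderm, fibroblast, mesoderm and trophoblast lists was called or had an unadjusted p under 0.05. The part of neuroectoderm or endoderm cells in the results for the import genes was not tested.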

How the data were processed

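RNA of 8 sorts of H1 cells, 4 small and 4 large, was hybridised to 1-colour arrays. Per the labels' protocols, 1 ug of total RNA went into a 3′ amplification and labelling kit. Scans were imported into Rosetta Resolver 7.1, per the series design text. The authors deposited 1 linear intensity per probe set and array; background correction and scaling are not given in the sources used here. After 62 control probe sets were left out, values were moved to log2(intensity + 1.813), the 10th percentile, and quantile normalized. Probe sets with a mean above the 40th percentile were fitted with limma 3.58.1 in R 4.3.3, with a variance trend, all 8 arrays and Benjamini-Hochberg adjustment over 32768 probe sets, and over 14726 genes (each by its probe set with the highest mean). The median SE was 0.24 over all tested genes and 0.19 over the members. The script was tested on simulated data. Members, lists and rules were chosen with earlier results of these data known. Values are named for members that passed, probe sets without overlap, the brightest of each role, and per partner list the called genes or up to 2 with the smallest p. Alternatives were scaling, pseudocount, filter, variance model, design and left-out arrays. The sample titles call the 4 sorts of a fraction biological repeats, and the series design text calls the sorts independent.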

Additional observations from a re-analysis of the deposited data

Results flagged for a closer look

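The 29 tested members and ATAD1 were checked in each fraction, which gave 60 groups of 4 arrays. In 6 of the 60, 1 array stood far from the other 3 by Dixon's criterion, which chance gives in about 1 in 20 groups. Different genes share the same arrays, so the groups are not independent. On small array 3, TIMM17A was at 9.5 (others 9.97 to 10), TIMM50 at 8.21 (8.84 to 8.89) and TIMM9 at 7.57 (8.12 to 8.15), all low, and TIMM44 at 8.29 (7.78 to 7.87), high. TIMM17B was at 8.07 on small array 4 (7.14 to 7.28). TIMM50 was at 9.43 on large array 2 (8.85 to 8.92). None of these genes passed the test.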

How the results depend on the processing

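The median difference of the members, 0.15, lay between 0.07 and 0.26 in all 22 alternatives and moved by less than its spread between arrays, 0.14. Of 29 member genes, 18 kept 1 sign in every alternative that gave a value, 16 above 0 and 2 below; 6 of these had no value when _x_at and _s_at probe sets were left out. CHCHD1 passed in 16 of 22 and TIMM8A in 10 of 22; TIMM10 passed in 3, with 75th percentile scaling (adjusted p = 0.04648), without large array 1 (0.04573) and without large array 1 and small array 3 (0.03258). The median of all genes was 0.05; it became -0.05 (deposited scaling), 0.10 (median centring) or 0.09 (75th percentile scaling), and the members' median relative to it was 0.10, and 0.17 under the other 3. The TIM23 median turned to -0.03 on the deposited scaling, while all 8 TIM22 and small TIM genes stayed above 0 under every scaling.

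Counts of calls moved more. From 293 genes, 491 probe sets, 2 member genes, 1 member probe set and 1 partner gene, the deposited scaling, median centring and the fit without a variance trend each gave 0, 3, 0, 0 and 0, with 494, 1575 and 2234 genes at an unadjusted p under 0.05. The 3′ to 5′ covariate gave 155 genes, 296 probe sets, 1 member gene and 0 partner genes, and leaving out _x_at and _s_at probe sets 190 genes and 290 probe sets. Without large array 1 and small array 3 there were 776 genes, 1148 probe sets, 5 member probe sets and 8 partner genes. No filter gave 1 member gene, and a stricter filter 2 member probe sets. Partner genes numbered 2 with 75th percentile scaling, a pseudocount of 16, the stricter filter or robust eBayes, and 0 when a gene's probe sets were averaged. With 75th percentile scaling 62 genes were higher and 148 lower, against 44 and 249. Leaving out each array in turn gave 62 to 553 genes, 49 to 788 probe sets, 0 to 3 member genes, 0 to 2 member probe sets and 0 to 3 partner genes; the lowest gene count was without small array 1 and the highest without large array 1. The cause was not tested.

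With the replicate number as a block there were 753 genes, 1205 probe sets, 3 member probe sets and 7 partner genes, 6 higher (3 of them in the twin CX9C list) and 1 lower. Correlations between arrays were taken over all tested genes after each gene's mean in its fraction was subtracted. On these deviations, small arrays 1, 2 and 3 correlated best with the large array of their number (0.11, 0.13 and 0.23). Small array 4 did not (0.01, against 0.05 with large array 2). Every same-number correlation was above 0, from 0.01 to 0.23. The labels state no pairing, so the numbers were not taken as pairs in the main fit. Whether sorts of equal number came from one culture is not known, and the counts with the block stand beside the main ones. The number of arrays limits the precision.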

Other observations

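Another 6 probe sets name a gene whose symbol fits the rule together with another gene, and were left out of the counts. TOMM6 and TOMM7 had no probe set of their own and are not among the 30 genes of the set. The probe set shared by TOMM7 and C4orf46 had 11.01, 11.07, 10.44 and 10.80 in small and 10.64, 10.41, 10.01 and 10.30 in large cells. The 3 probe sets shared by TIMM23 and TIMM23B and the 2 shared by TOMM6 and PRICKLE4 overlapped between the fractions as well; the brightest of TIMM23 had means of 10.76 ± 0.17 (SD, n = 4) and 10.59 ± 0.15 (SD, n = 4).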
